A study of Glycine max with 44 samples.

Results

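Among the glutathione S-transferases of soybean roots, 5 tau-class genes that had been picked as raised by aluminium (Al) are described here: GSTU41, GSTU42, GSTU43, GSTU47 and LOC547581, whose synonym is GSTU21. A probe set, the group of short probes that an Affymetrix array sums into a value for a transcript, was taken as a member when its sole annotated gene was one of the 5. This gave 10 probe sets, of 37593 soybean probe sets and 6029 genes with a probe set of their own on the array. The genes were picked from their difference between roots with and without Al, so that difference is given below as a description, with no test. The remaining glutathione S-transferase family on the array comprised 50 probe sets of 34 genes.

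Glutathione S-transferases join the tripeptide glutathione to reactive or toxic compounds, which makes them more soluble and marks them for transport into the vacuole. The tau class is found in plants and is known for the detoxification of herbicides and for induction by many stresses, and the phi class is the other large plant class. Al in acid soils is toxic to the root tip, where it stops elongation and is accompanied by oxidative stress.

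RNA was measured on 44 arrays, from the first centimetre of the tap root tip of 2 soybean genotypes in hydroponic culture. PI 416937 is described by the submitters as Al tolerant and Young as Al sensitive. The titles of all PI 416937 arrays end in the letter b and those of Young do not. What the letter marks is not given, and it cannot be told apart from genotype. Plants of each genotype received 10 µM Al or 0 µM Al and were sampled at 2, 12, 48 and 72 h, which made 16 groups with 2 arrays each at 2 h and 3 arrays each at the later times. Plant age and the number of plants per array are not given in the sources used here, and neither is whether replicates are separate cultures; p-values therefore reflect spread among these samples, which may be technical. Levels are log2(intensity + 16) throughout, differences are on the same scale, and ± gives the standard error from limma. Adding 16 understates the change of dim probe sets. Background, the 95th percentile of the means of probe sets for other organisms, lay at 4.41. Precision is limited by how many arrays a group has. The arrays sum all cells of the tip, so a lower level from fewer cells of a type and from less RNA per cell cannot be told apart.

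The replicate arrays of a group correlated on average between 0.934 and 0.997 over the tested probe sets. The lowest values, 0.934 and 0.942, were replicates 1 and 3 of Young with Al at 12 h. The 3 untreated Young arrays at 72 h, the Young baseline of the response at that time, had 0.995 to 0.997. The next highest array had 0.986. PI 416937 without Al at 72 h replicate 1 had an average correlation of 0.952 with its group, and it stood apart from the other arrays of its group in most member probe sets. Results that rest on it are given with and without it. Of the marker lists for the labelled tissue, all 5 root meristem and tip probe sets were above background, led by a histone H4 probe set at 14.70. The photosynthetic list had 11 of 12 probe sets above background, and its highest was PSAD, a photosystem I subunit, at 13.30. The nodule list had 4 of 6 above background, and its highest was NOD33 at 11.47. No probe set carried a symbol of the vascular list.

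The 5 genes lie on 5 different chromosomes (assembly Glycine_max_v4.0, from the cultivar Williams 82). GSTU41 spans chromosome 8 from 14067588 to 14069047, GSTU42 chromosome 10 from 42606460 to 42607352, and GSTU43 chromosome 11 from 32813247 to 32814730. GSTU47 spans chromosome 15 from 49962643 to 49964189, and LOC547581 spans chromosome 6 from 17113795 to 17115540. GSTU47 had 5 other tau genes within 100 kb, GSTU41 had 2, and GSTU42, GSTU43 and LOC547581 had 0. The positions of the probes within exons or untranslated regions were not analysed here.

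Of the 10 probe sets, 9 had a group mean above background in all 16 groups and were tested. The exception was a GSTU47 probe set that was above background in 0 groups and had an overall mean of 4.41. Across probe sets, levels cannot be ranked as amounts of RNA, since each binds its target with its own strength. LOC547581 had an overall mean level of 12.26, GSTU42 11.43 and the brighter probe set of GSTU41, an _s_at set, 11.18. GSTU43 averaged 5.32 and lay close to background in most groups. The suffixes _s_at and _x_at mark probe sets whose probes also match related transcripts, so the values of the brighter GSTU41 set, of GSTU42 and of 1 GSTU47 set may include near-identical copies.

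GSTU41, GSTU42, LOC547581 and a pair of GSTU47 probe sets were high at 2 h in roots with and without Al, were lower in most untreated arrays from 12 h on, and stood high again at 48 h in roots of both genotypes with Al. At 72 h they were still high in Young with Al and lay at or near the level of most untreated arrays in PI 416937 with Al. Over the 9 tested probe sets, the median of Al minus untreated at 48 h was 3.20 in PI 416937 and 3.34 in Young, beside −0.02 in either genotype over all tested probe sets. At 72 h it was −0.84 in PI 416937 (0.01 over all) and 3.87 in Young (−0.02 over all). This course is seen in the plot of levels on every array.

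**Figure D1:**
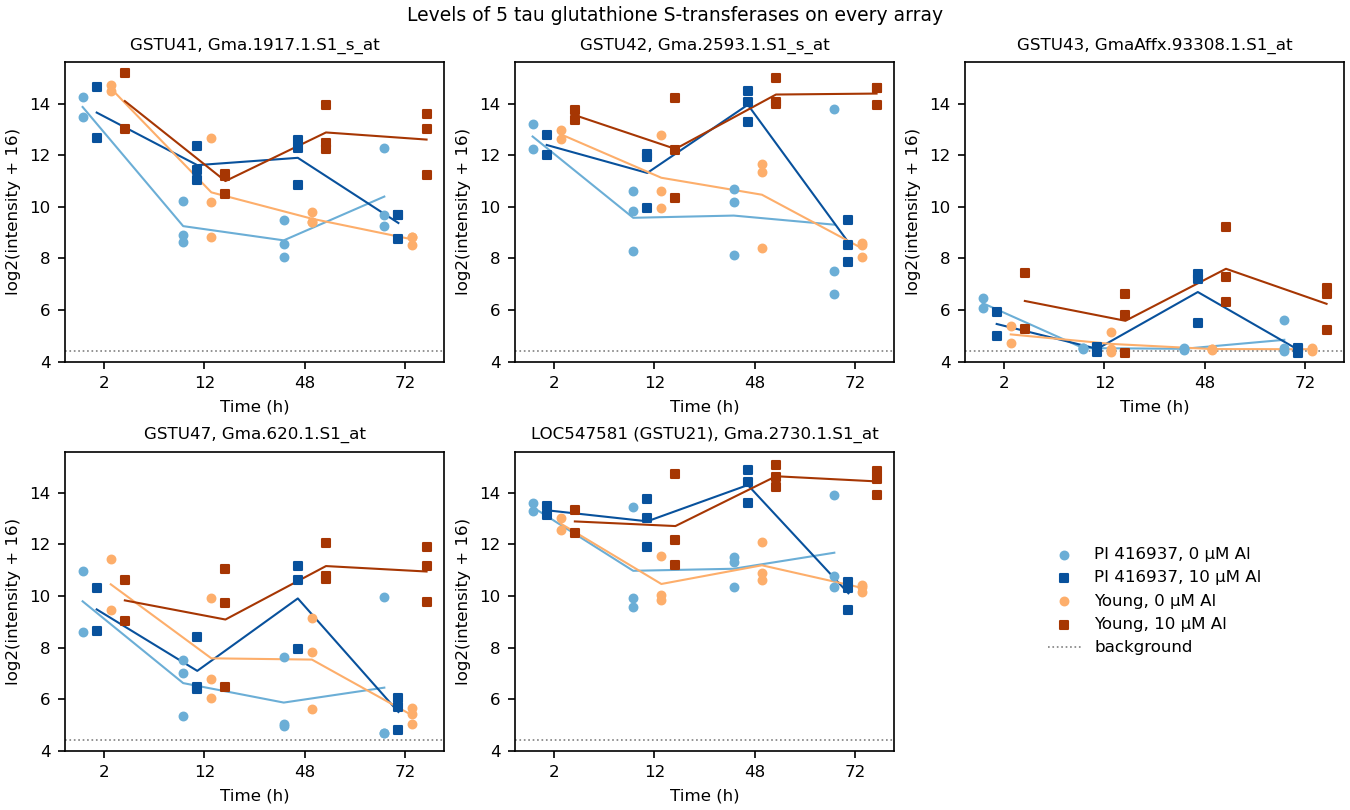
Level, as log2(intensity + 16), of each of the 5 genes against time in hours; every point is an array, lines join group means, and the dotted line is background at 4.41. GSTU47 is shown by its _at probe set that rose with Al, chosen after its values were seen. At 72 h the Young arrays with Al lie above the PI 416937 arrays with Al in the panels shown. The brightest GSTU47 probe set, not shown here, overlapped, and how many of all probe sets separate these groups was not counted. The untreated PI 416937 array that stands apart at 72 h is the highest light blue point at that time.

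GSTU42 showed the widest range. In untreated roots at 48 h its levels were 10.17, 10.67 and 8.13 in PI 416937 and 11.35, 11.66 and 8.39 in Young. With Al at 48 h they were 14.08, 14.49 and 13.29 in PI 416937 and 13.98, 15.00 and 14.07 in Young. The treated and untreated arrays of either genotype did not overlap. Al minus untreated was 4.29 ± 1.18 in PI 416937 and 3.88 ± 1.18 in Young. As linear means, intensity went from 1005 to 16754 units in PI 416937 and from 2042 to 22019 units in Young. At 72 h the levels with Al were 13.93, 14.61 and 14.62 in Young, against 8.04, 8.59 and 8.52 without Al. In PI 416937 at 72 h they were 7.86, 8.52 and 9.48 with Al and 13.78, 7.52 and 6.62 without. Treated PI 416937 arrays thus lay inside the range of their untreated group, whose replicate 1 alone came near the lowest array of Young with Al. Al minus untreated at 72 h was 6.01 ± 1.18 in Young and −0.68 ± 1.18 in PI 416937, and without that array the latter became 1.55. The 3 groups with the highest GSTU42 means were Young with Al at 72 h (14.39), Young with Al at 48 h (14.35) and PI 416937 with Al at 48 h (13.95), and neighbours among them did not differ beyond their spread.

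LOC547581 had the same 3 leading groups as GSTU42, with the first 2 exchanged. Its levels at 48 h without Al were 11.32, 10.33 and 11.51 in PI 416937 and 12.08, 10.89 and 10.60 in Young. With Al they were 14.42, 14.87 and 13.60 in PI 416937 and 14.62, 15.06 and 14.23 in Young. All treated arrays exceeded all untreated arrays at that time, with Al minus untreated at 3.24 ± 0.84 and 3.45 ± 0.84. Already at 12 h the differences were 1.92 ± 0.84 in PI 416937 and 2.24 ± 0.84 in Young, but arrays with and without Al overlapped in either genotype. In PI 416937 an untreated array reached 13.43 beside 9.93 and 9.56. At 72 h, Young had 13.93, 14.85 and 14.55 with Al and 10.17, 10.42 and 10.35 without. PI 416937 had 9.45, 10.56 and 10.31 with Al and 13.90, 10.79 and 10.34 without. In PI 416937 the difference at 72 h was −1.57 ± 0.84, or −0.46 without the array that stood apart, and in Young it was 4.13 ± 0.84. In the order of the 16 groups, Young with Al at 48 h (14.64), Young with Al at 72 h (14.44) and PI 416937 with Al at 48 h (14.30) led, and the step to the next group, 0.86, exceeded the larger SD of that pair of groups.

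GSTU41 differed from these in being highest at 2 h. The 4 groups of 2 h held its 4 highest means, from 13.65 to 14.59 for the brighter probe set, and neighbours among them did not differ beyond their spread. Without Al at 2 h its levels were 14.27 and 13.47 in PI 416937 and 14.70 and 14.48 in Young, and with Al they were 14.65 and 12.65, and 15.18 and 13.00. Al minus untreated at 2 h was therefore −0.22 ± 0.98 in PI 416937, smaller than its error. PI 416937 had a difference of 2.36 ± 0.80 at 12 h, from levels of 12.36, 11.04 and 11.44 with Al and 8.89, 8.63 and 10.22 without, which did not overlap. In Young, whose untreated arrays at 12 h spread from 8.83 to 12.67, the difference was 0.44 ± 0.80. At 48 h the differences were 3.20 ± 0.80 in PI 416937 and 3.34 ± 0.80 in Young. At 72 h the levels with Al were 11.22, 13.60 and 12.99 in Young and 8.75, 9.68 and 9.68 in PI 416937, with no overlap. The second probe set averaged 9.01 and followed the same course, with r = 0.997 to the first over the 16 group means. The third averaged 4.74 and was dim throughout. Its highest arrays were at 2 h in Young, at 6.75 with Al and 6.13 without, and single arrays with Al reached 5.21 at 48 h in PI 416937 and 5.29 at 72 h in Young.

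GSTU43 was near background on most untreated arrays from 12 h on, with the highest at 5.60 on the PI 416937 array that stood apart. At 48 h it had 4.45, 4.50 and 4.53 without Al and 7.19, 7.41 and 5.48 with Al in PI 416937. Young at that time had 4.45, 4.50 and 4.50 without and 7.28, 9.20 and 6.30 with Al. The differences, 2.20 ± 0.58 and 3.11 ± 0.58, start from a level near background and understate the change. At 72 h Young with Al had 5.23, 6.87 and 6.62, while PI 416937 with Al had 4.53, 4.50 and 4.32, near background. At 2 h without Al, GSTU43 had 6.47 and 6.06 in PI 416937 and 5.37 and 4.74 in Young.

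The 4 probe sets annotated to GSTU47 did not show a common pattern. An _at and an _x_at probe set, called the moving sets here, moved together (r = 0.986 over the 16 group means) and resembled GSTU42 (r = 0.970 and 0.954). The brightest, at a mean of 11.54, was nearly flat, with group means from 10.75 in Young with Al at 12 h to 12.15 in PI 416937 with Al at 2 h, and with r = −0.304 to the moving _at set. The 16 points of each correlation share arrays and groups, so these r are descriptions. With Al at 72 h, the moving _at set had 9.78, 11.17 and 11.90 in Young and 6.03, 4.79 and 5.70 in PI 416937. Without Al it had 5.03, 5.67 and 5.41 in Young, and 9.97, 4.69 and 4.69 in PI 416937. Its Al minus untreated difference was 5.58 ± 1.27 in Young, whereas that of the flat probe set was −0.12 ± 0.42. Which of them reports the GSTU47 transcript cannot be told from the files, and statements on GSTU47 below name the probe set.

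**Figure D2:**
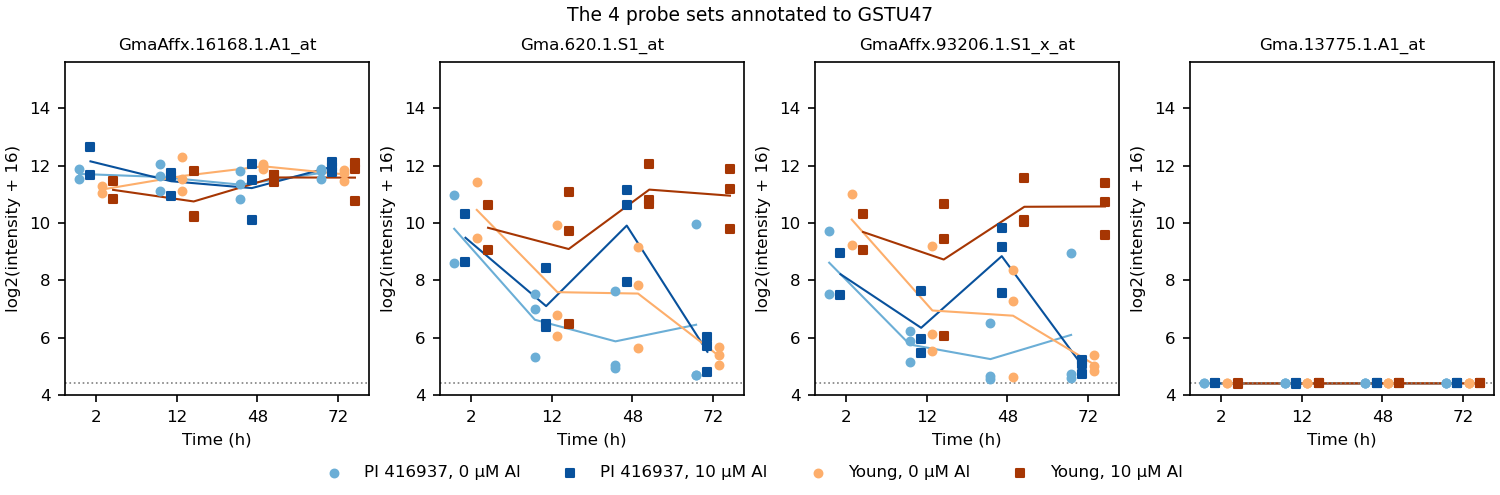
Level, as log2(intensity + 16), of the 4 probe sets annotated to GSTU47 against time in hours; points are arrays, lines join group means, and the dotted line is background. The brightest stays between group means of 10.75 and 12.15, a pair moves with Al and time, and the dimmest lies at background, near 4.41, on every array.

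The next question was whether the response to Al, treated minus untreated, differed between the genotypes. The responses compared are those that led to the choice of the genes, so these tests are no independent evidence for them. At 2, 12 and 48 h, 0 of the 9 tested member probe sets passed an adjusted p under 0.05 in limma, where 0.357%, 0% and 0.0113% of all 35289 tested probe sets did. Without adjustment, 2436, 1228 and 722 of all probe sets were under 0.05 at these times. GSTU43 at 2 h was among them, with a difference of −2.10 (limma adjusted p = 0.711). At 48 h the difference in response of GSTU42 was 0.41 with a 95% interval from −2.99 to 3.81, and that of LOC547581 was −0.21 with an interval from −2.63 to 2.22. Intervals this wide do not show that the genotypes responded alike.

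At 72 h, 5 of the 9 member probe sets had a lower response in PI 416937 than in Young, against 1.71% of all probe sets called and 1.45% called lower. LOC547581 differed by −5.70 ± 1.19 (limma adjusted p = 0.009), GSTU42 by −6.69 ± 1.66 (adjusted p = 0.0313), and the brighter GSTU41 probe set by −4.89 ± 1.13 (adjusted p = 0.0195). Both the second GSTU41 probe set (−4.24 ± 1.02, adjusted p = 0.0242) and the moving _x_at set of GSTU47 (−6.58 ± 1.59, adjusted p = 0.025) passed as well. The moving _at set of GSTU47 had −6.52 ± 1.80 with adjusted p = 0.056, and GSTU43 −2.15 ± 0.82 with adjusted p = 0.204. The median over the 9 members was −4.89, beside 0.05 over all tested probe sets. Counts of member probe sets, here and below, are not counts of genes. The first and second GSTU41 probe sets moved together (r = 0.997 over the 16 group means), as did the moving sets of GSTU47 (r = 0.986).

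These calls depended on single arrays. Without replicate 1 of untreated PI 416937 at 72 h, 0 of the 9 passed, with LOC547581 at −4.59 (adjusted p = 0.0567) and GSTU42 at −4.45 (adjusted p = 0.147). The count was 1 without replicate 2 or replicate 3 of Young with Al, 2 without replicate 1 of PI 416937 with Al or without replicate 1 or 3 of untreated Young, and 3 without replicate 2 of PI 416937 with Al or of untreated Young. A fit on the 4 groups of 72 h alone called 0, and gave LOC547581 an adjusted p of 0.0675. The sign stayed negative for the 5 called probe sets in each of the 12 fits that left out an array.

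**Figure D3:**
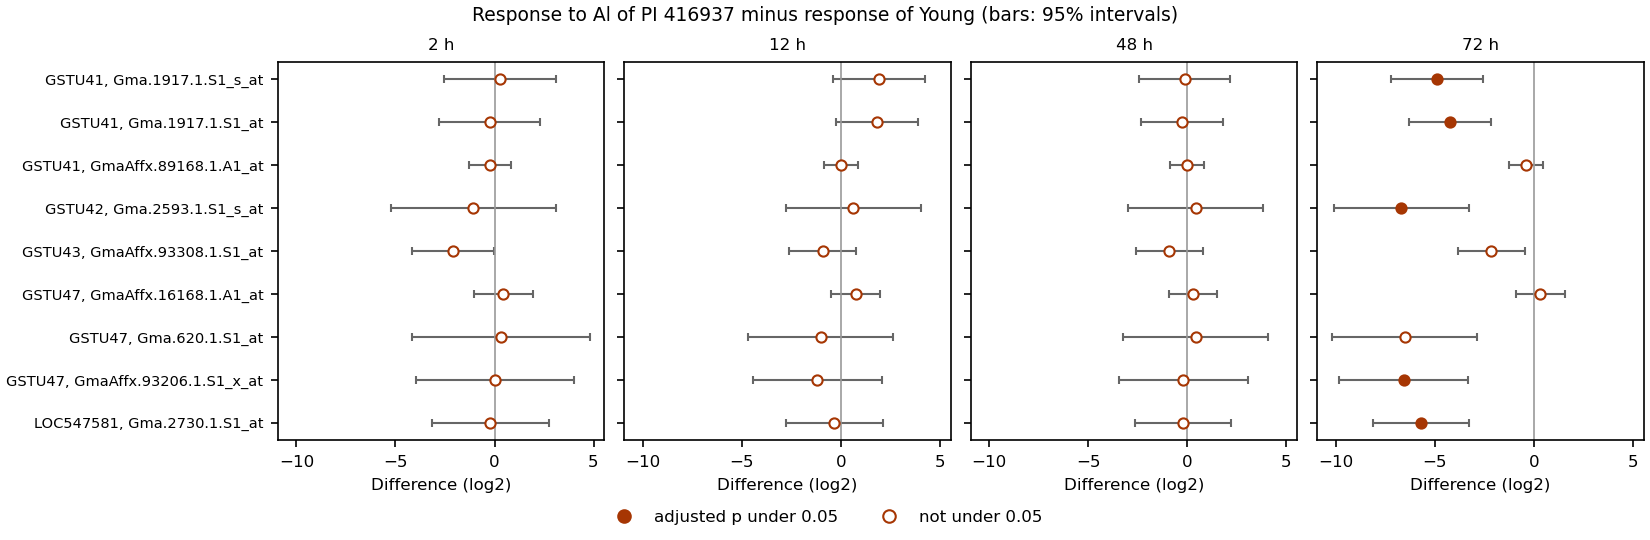
Response to Al in PI 416937 minus the response in Young, in log2 units, for the 9 tested member probe sets at 2, 12, 48 and 72 h; bars are 95% intervals and filled points have an adjusted p under 0.05. The 5 filled points are all at 72 h, between −6.69 and −4.24.

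PI 416937 was also compared with Young among roots with Al. High values on these treated arrays led to the choice of the genes, so these tests are no independent evidence either. At 48 h it called 0 of the 9 members, beside 0.89% of all probe sets, and 2286 probe sets of all were under an unadjusted p of 0.05. At 72 h it called 7 of the 9, all lower in PI 416937, where 11.4% of all probe sets were called and 6.12% were called lower. The differences were −5.76 ± 1.18 for GSTU42 (limma adjusted p = 0.00158), −4.34 ± 0.84 for LOC547581 (adjusted p = 0.000982) and −3.23 ± 0.80 for the brighter GSTU41 probe set (adjusted p = 0.00787). For GSTU47, the moving _at set differed by −5.44 ± 1.27 (adjusted p = 0.00496) and the _x_at set by −5.56 ± 1.12 (adjusted p = 0.00147). GSTU43, at −1.79 ± 0.58 with adjusted p = 0.0432, lay near background in PI 416937. In linear means at 72 h with Al, GSTU42 had 21914 intensity units in Young and 423 in PI 416937, and LOC547581 had 23004 and 1142. The flat GSTU47 probe set gave 0.38 ± 0.42 (adjusted p = 0.646).

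The count stayed between 4 and 7 when an array was left out, with 4 without replicate 2 of Young with Al, and it was 4 when only these 2 groups were fitted. GSTU42, LOC547581 and both moving GSTU47 probe sets passed in each of the 6 fits that left out an array, with adjusted p of at most 0.0125, 0.0105, 0.0317 and 0.0119. Both GSTU41 probe sets lost their call in 1 of these fits, and GSTU43 passed in 1. The summed intensity of the nodule list was 2749 to 9163 in Young with Al at 72 h and 989 to 1608 in PI 416937, and that of the root meristem and tip list was 25394 to 35123 against 14492 to 29827. The photosynthetic list ran the other way, at 8223 to 9743 against 11708 to 13143. Each sum is led by the brightest probe set of its list. Overall mean levels were 11.47 for NOD33 beside 5.88 for the next nodule probe set. They were 14.70 for H4 beside 8.31, and 13.30 for PSAD beside 9.13. None of the probe sets on these 3 lists was called in this comparison, and their part in the result was not tested. The actin control difference between 3′ and 5′ probes, a sign of RNA integrity, was 1.05 to 1.61 in Young and 0.81 to 1.19 in PI 416937. The same difference for the array's glutathione transferase control was 1.07 to 1.62 in Young and 2.02 to 2.59 in PI 416937, without overlap, and its part in the result was not tested. Its group means ran from 0.35 in untreated Young at 2 h to 2.26 in PI 416937 with Al at 72 h. As this control is itself a glutathione transferase transcript, RNA integrity and transcript level cannot be told apart in it.

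Without Al, the genotypes were compared over the mean of the 4 times. These untreated arrays are the baseline of the differences that chose the genes. This comparison called 0 of the 9 members, beside 4.84% of all probe sets, while 5654 of all were under an unadjusted p of 0.05. PI 416937 minus Young was 0.60 ± 0.45 for LOC547581 (limma adjusted p = 0.581), −0.38 ± 0.62 for GSTU42 (adjusted p = 0.85) and −0.30 ± 0.42 for the brighter GSTU41 probe set (adjusted p = 0.815). The 95% interval for GSTU42 ran from −1.66 to 0.89, so the comparison does not show that the genotypes were alike. Without the array that stood apart, 0 of the 9 were called as well, and GSTU42 gave −0.94 (adjusted p = 0.282).

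The untreated course was tested too. Its 48 h arrays are the baseline of the difference that chose the genes, and a low baseline favours both the choice and a positive difference between 2 h and 48 h, so these calls are no independent evidence. At 2 h, untreated roots held more transcript of most members than at 48 h. The difference, as the mean of both genotypes, was called for 7 of the 9 member probe sets, all higher at 2 h, where 20.6% of all probe sets were called and 9.95% called higher. GSTU41 differed most, by 5.11 ± 0.63 in its brighter probe set (limma adjusted p = 2.93e-06), by 4.54 ± 0.57 in the second (adjusted p = 3.42e-06) and by 0.82 ± 0.23 in the dimmest (adjusted p = 0.0124). GSTU42 was higher at 2 h by 2.70 ± 0.93 (adjusted p = 0.0371) and LOC547581 by 2.00 ± 0.66 (adjusted p = 0.0308). Of the GSTU47 probe sets, the moving _at set differed by 3.42 ± 1.0 (adjusted p = 0.015) and the _x_at set by 3.36 ± 0.89 (adjusted p = 0.00753), whereas the flat one gave −0.22 ± 0.33 (adjusted p = 0.705). GSTU43 had 1.17 ± 0.46 with adjusted p = 0.0691. The median of the 9 was 2.70, beside −0.02 over all tested probe sets.

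The 2 brighter GSTU41 probe sets passed in all 10 fits that left out an array, and GSTU42 passed in 4 and LOC547581 in 3 of them. The count fell to 2 without replicate 1 of untreated Young at 2 h, to 3 without replicate 2 and to 4 without replicate 1 of untreated PI 416937 at 2 h, and to 4 without replicate 3 of untreated Young at 48 h. The summed nodule list, led by NOD33, was 3236 to 10319 in the 4 untreated arrays of 2 h and 664 to 5084 in the 6 of 48 h. The meristem and tip sum was 24263 to 34655 at 2 h and 14420 to 33558 at 48 h. The photosynthetic sum was 9888 to 14571 at 2 h and 10415 to 17552 at 48 h. At 2 h, 1 nodule probe set was called lower and 1 meristem and tip probe set higher. The part of these lists in the result was not tested. Sampling at different times of a light and dark cycle cannot be told apart from hours in culture here. The comparisons of 12 h and 72 h with 48 h called 0 of the 9 members, beside 4.1% and 21.5% of all probe sets, and 6479 and 12050 of all were under an unadjusted p of 0.05. Without the untreated PI 416937 array that stood apart, GSTU42 was lower at 72 h than at 48 h by −2.34 (adjusted p = 0.0176), where the fit on all arrays gave −1.22 ± 0.83 (adjusted p = 0.318).

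**Figure D4:**
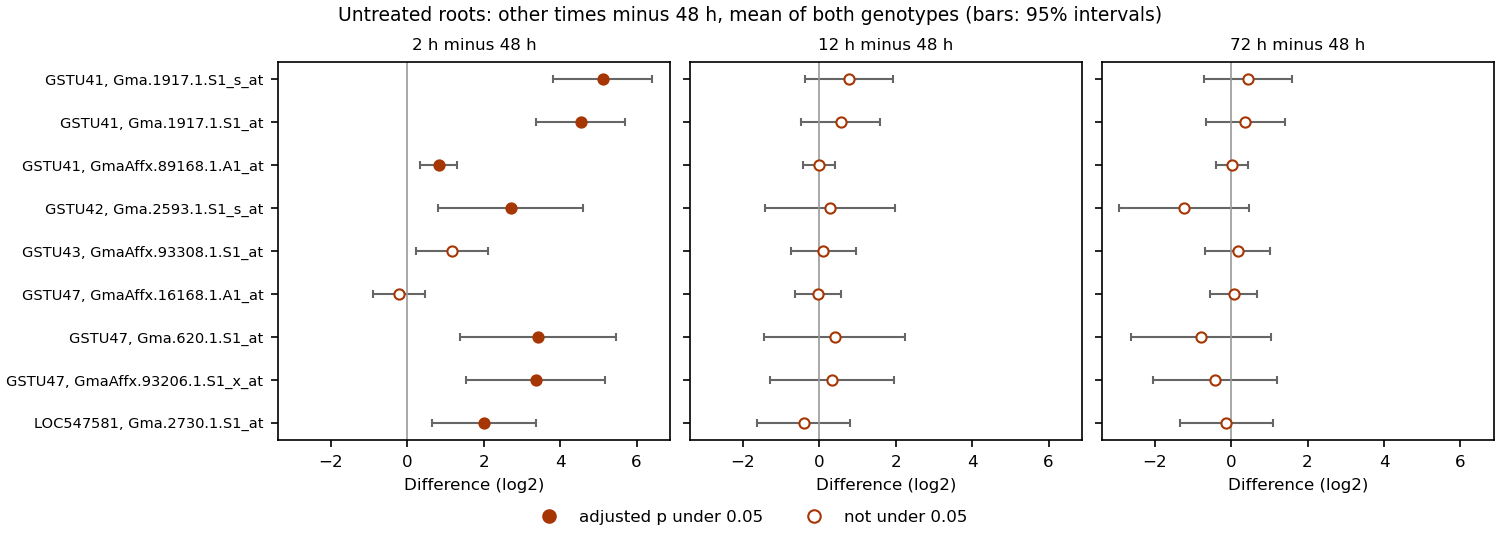
Level in untreated roots at 2, 12 and 72 h minus the level at 48 h, in log2 units, as the mean of both genotypes for the 9 tested member probe sets; bars are 95% intervals and filled points have an adjusted p under 0.05. The 7 filled points are all in the comparison of 2 h with 48 h, from 0.82 to 5.11.

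In the rest of the glutathione S-transferase family, some other tau genes also rose with Al. Of 28 probe sets of other tau genes, 3 rose at 48 h in PI 416937 and 4 in Young. Of all probe sets, 3.39% and 2.46% were called higher, and 4.04% and 2.77% were called in either direction. GST3, whose synonym is GSTU53, rose by 3.19 ± 0.88 (limma adjusted p = 0.033) in PI 416937 and 3.22 ± 0.88 (adjusted p = 0.0393) in Young. Its probe set is an _s_at set, so its values may include related transcripts. LOC547578 rose by 2.31 ± 0.65 (adjusted p = 0.0376) and 2.54 ± 0.65 (adjusted p = 0.0246), and LOC548031 by 2.39 ± 0.64 (adjusted p = 0.0283) and 3.21 ± 0.64 (adjusted p = 0.00325). At 72 h 4 of the 28 rose in Young, where 3% of all were called higher and 3.7% in either direction. In PI 416937 at 72 h 0 were called, beside 0.0397% of all. Of the 7 phi probe sets, GSTF7 fell by 2.06 ± 0.53 (adjusted p = 0.0213) in PI 416937 at 48 h and GSTF5 rose by 1.71 ± 0.39 (adjusted p = 0.00922) in Young at 72 h. The 15 probe sets of other classes and 25 of redox partners, such as ascorbate peroxidases and superoxide dismutases, gave 0 calls at 48 and 72 h in either genotype.

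Between the genotypes at 72 h, 0 of the 28 other tau probe sets were called different in response, beside 1.71% of all probe sets. GST3 gave −4.44 ± 1.24 (limma adjusted p = 0.0607). The median over the 28 was −0.55, beside 0.05 over all tested probe sets, so 0 calls do not show equal responses. Among roots with Al, 11 of the 28 were lower in PI 416937, 3 of the 15 of other classes were lower and 1 higher, and 0 of the 7 phi probe sets were called, beside 6.12% of all called lower and 5.29% higher. The higher one was EF1BGAMMA4, by 0.73 ± 0.23 (limma adjusted p = 0.0367). It is an elongation factor 1B gamma gene, which the list of other classes takes in by its symbol. GST3 was lower by −3.84 ± 0.88 (adjusted p = 0.00432) and LOC547578 by −2.94 ± 0.65 (adjusted p = 0.00309). In untreated roots, 14 of the 28 were higher and 2 lower at 2 h than at 48 h, beside 9.95% and 10.7% of all, with GST3 higher by 4.63 ± 0.70 (adjusted p = 3.6e-05).

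**Figure D5:**
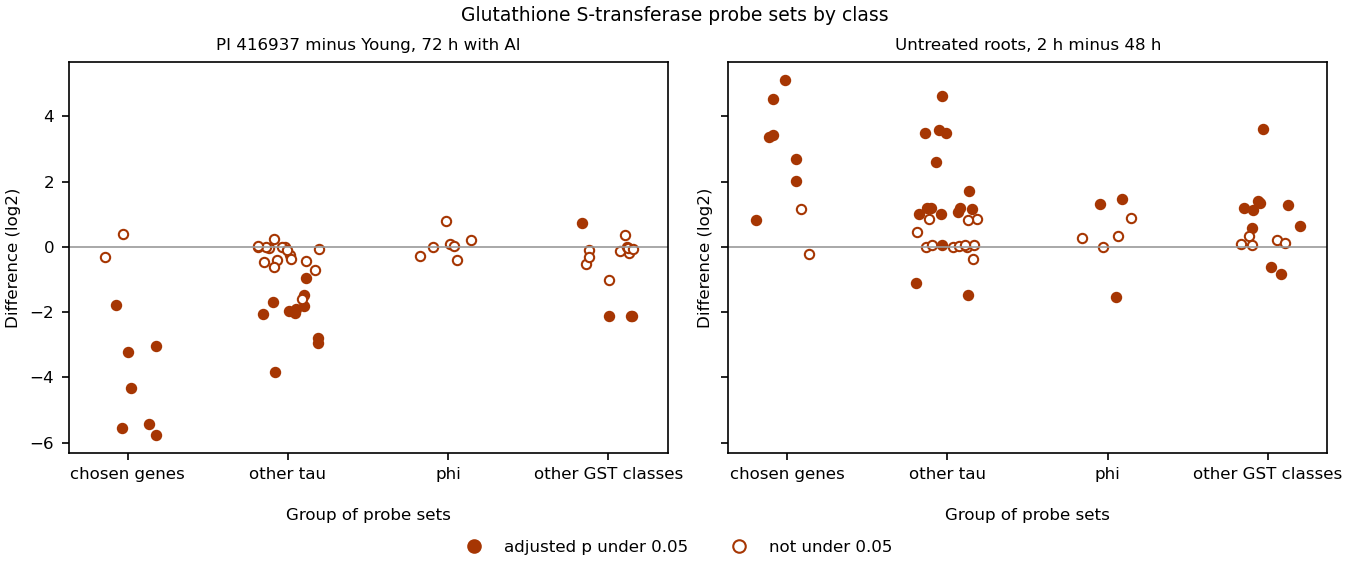
Differences in log2 units for the 9 tested member probe sets, 28 of other tau genes, 7 of phi genes and 15 of other classes, between PI 416937 and Young with Al at 72 h (left) and between 2 h and 48 h in untreated roots (right). Filled points have an adjusted p under 0.05, and sideways scatter has no meaning; on the left 7 of the 9 and 11 of the 28 are filled below 0.

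Tau genes next to a member on the chromosome differed in their course. GSTU47 lies 26.2 kb from GSTa (GSTU48), 33.7 kb from LOC548030 (GSTU51) and 69.3 kb from GST3, all tau genes. The _s_at set of GST3 may also report transcripts from elsewhere. With Al at 72 h in Young, GST3 rose by 3.67 ± 0.88 (limma adjusted p = 0.0144), GSTa gave 1.56 ± 0.46 (adjusted p = 0.053) and LOC548030 0.06 ± 0.10 (adjusted p = 0.862) at background. GSTU37, 21.5 kb from GSTU41, was at background too, with 0.01 ± 0.27 (adjusted p = 1).

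Detoxification partners, listed by the symbols of cytochrome P450s, glycosyltransferases, ABCC transporters and oxophytodienoate reductases, had 4 of 60 probe sets raised and 2 lowered by Al at 48 h in PI 416937, 8 and 1 in Young, and 10 and 0 in Young at 72 h. Over all probe sets, 3.39% were raised and 0.652% lowered at 48 h in PI 416937, 2.46% and 0.312% in Young, and 3% and 0.7% in Young at 72 h. At 72 h their response was lower in PI 416937 for 6 of the 60, beside 1.45% of all probe sets. CYP82A3, a P450 gene, differed by −7.82 ± 1.89 (limma adjusted p = 0.025), and CYP93A1 by −5.39 ± 1.29 (adjusted p = 0.0242).

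The genes most like the members were sought over the 16 group means, with no test. For the mean pattern of the 5 genes, AOX1, the alternative oxidase of the mitochondrial respiratory chain, had the highest Pearson r, 0.951, ahead of LOC100782035 at 0.947. PT01 was next at 0.935, and CYP82A3 (rank 4, 0.931) and the ferritin gene SFERH-2 (rank 6, 0.926) came later. GSTU47 entered this mean by its flat probe set, whose r to the brightest probe sets of the other genes ran from −0.37 to −0.2. Taken singly, LOC547581 was nearest AOX1 (r = 0.978), GSTU41 nearest LOC547578 and GST3 (both 0.976), GSTU42 nearest OLPa (0.954), and GSTU43 nearest WRKY39 (0.928). Of the 10 genes named for the mean pattern, 6 were shared when rank correlation was used, 3 over the 44 arrays, and 4 when GSTU47 was represented by its moving _at set, an alternative chosen after seeing the data.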

How the data were processed

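The authors deposited a table of intensity values per probe set and array, with array medians from 6.56 to 7.52 units. The method of summarisation and normalisation is not given in the sources used here. Biotin-labelled cRNA was made from 2 µg of RNA, per the labels' protocols. Gene names came from the platform annotation, updated through RefSeq gene identifiers; 8677 soybean probe sets had 1 gene, 370 several and 28546 none listed. Values were transformed as log2(intensity + 16). A soybean probe set was tested when at least 1 group mean exceeded background (4.41), which kept 35289. One model of the 16 groups over all 44 arrays used limma 3.58.1 under R 4.3.3 (lmFit, contrasts, eBayes with trend, 28 residual degrees of freedom), and adjusted p-values are Benjamini-Hochberg values over all tested probe sets. The fit was tested on simulated data. For likeness the brightest probe set stood for each member, compared by Pearson r over group means. From each list up to 4 genes with the smallest p could be named; neighbours within 100 kb were chosen after seeing the data. Members, lists and tests were chosen with earlier results of these data known. Replicate numbers paired arrays with and without Al in Young at 12 h (residual correlations 0.241 to 0.294) and 48 h (0.382 to 0.480), and PI 416937 with Young arrays at 12 h without Al (0.239 to 0.408) and 48 h with Al (0.270 to 0.666), by that check alone. At 72 h these correlations had mixed signs. Between arrays with and without Al they were −0.267 to 0.392 in PI 416937 and −0.2 to 0.177 in Young. Between the genotypes with Al they were −0.114 to 0.293. Alternatives covered pseudocount, normalisation, filter, variance model, fitted samples, replicate block and left-out arrays. Promoter, probe and protein sequences were not used here.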

Additional observations from a re-analysis of the deposited data

Results flagged for a closer look

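An interaction test at 72 h, PI 416937 minus Young, called the response to Al in 5 of the 9 tested member probe sets. Of all probe sets, 1.71% were called and 1.45% were called lower. The responses compared led to the choice of the genes, so these calls are no independent evidence. The differences were −4.89 and −4.24 for the brighter and the second probe set of GSTU41, −6.69 for GSTU42, −6.58 for the _x_at probe set of GSTU47 and −5.70 for LOC547581. In untreated PI 416937 replicate 1 at 72 h, these 5 were above both other arrays of the group, as with 13.78 against 7.52 and 6.62 for GSTU42, and 0 of the 5 passed without it. Its part in the result was not tested further.

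The array also carries 3 control probe sets for a glutathione transferase transcript, which are not among the members and which the comparisons did not use. In Young with Al at 48 and 72 h they lay above the untreated arrays without overlap, and how many of all probe sets did so was not counted. At 48 h the differences in Young were 0.64 for the 3′, 0.72 for the middle and 1.41 for the 5′ probe set, and at 72 h they were 1.41, 1.48 and 2.04. In PI 416937 at 48 h they were 0.19, 0.22 and 0.78, and arrays with and without Al overlapped in each. In PI 416937 at 72 h the 3′ probe set had 11.64, 11.53 and 11.67 with Al and 12.51, 11.63 and 12.08 without, which overlap, as did the 5′ probe set at −0.65. The middle probe set was lower with Al without overlap, by −0.56. These differences were not tested.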

How the results depend on the processing

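For the response difference at 72 h, fitting only the compared groups called 0 member probe sets in place of 5, and leaving out an array gave 0 to 6. Among roots with Al at 72 h, fitting only those groups called 4 in place of 7, and leaving out an array gave 4 to 7. For untreated roots at 2 h against 48 h, leaving out an array gave 2 to 7, and at 72 h against 48 h 0 to 1. Pseudocounts of 1 and 64, quantile normalisation, other filters and no variance trend kept every member count within 1.5 times of the value reported, and no difference that was called changed sign. The replicate block called 6 at 72 h, adding the moving _at set of GSTU47 (adjusted p = 0.0218), left 7 among roots with Al at 72 h and 0 in the other genotype and response comparisons; for times no block could be fitted. Residual correlations of same-numbered arrays had mixed signs at 72 h, so the replicate numbers showed no steady pairing there. At 2 h the numbers in PI 416937 were opposed (r = −0.18), and the crossed pairing, chosen after seeing the data, also called 0. Signal over background limits GSTU43 and the dimmest GSTU41 probe set. Over all probe sets, the calls for the response difference at 72 h were 605, but 114 from the compared groups only, 957 with the replicate block and 169 to 1073 without an array; among roots with Al at 72 h 4028, but 1797 from those groups only and 1492 to 4601 without an array; and for 2 h against 48 h 7282, but 4626 from those groups only and 3547 to 7854 without an array. The cause was not tested.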
